A study of Rattus norvegicus with 35 samples.

Results

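The 3 bacterial features described here were selected on their measured values: of 1073 features in a 16S amplicon table of rat colon and faeces, they are the ones with a read count above 0 in all 35 libraries. Their codes are 0df6c802966e8670279671824da4f10a, f80166d86a7f15b69b6ac97505299c3a and 95fdd816723ca482a5caba10bea171c8, shortened below to 0df6c802, f80166d8 and 95fdd816. The deposited table pairs the codes with neither a bacterial name nor a sequence, so no taxon is given. The 3 features make up 0.280% of the features and hold 38345 of 278978 reads, 13.7%. The rule itself favours features with many reads.

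The study compared rats exposed to footshock, which serves as a laboratory model of post-traumatic stress disorder, with control rats. Bacterial DNA from colon and from faeces was amplified over the V3-V4 stretch of the 16S gene and sequenced. There were 10 control and 8 shocked libraries of colon, and 9 control and 8 shocked libraries of faeces. Controls carried library numbers 1 to 10 and shocked libraries 11 to 18, with faecal number 9 not analysed here. Strain, sex, age, the shock schedule and the part of the colon sampled, wall or content, are not stated in the labels. Nor do these say whether libraries came from separate rats or whether a shared number is a shared rat, so a p-value here measures spread among libraries that may be technical.

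The 16S ribosomal RNA gene is carried by every bacterium, and its variable stretches differ between lineages. A distinct amplicon is therefore commonly taken to stand for a group of closely related bacteria, though the match need not be 1 to 1. Bacteria that are found in nearly every animal of a colony are often called a core community. Most of the many other lineages of the gut come and go between animals. Read shares are relative: the share of 1 feature can rise because others fall, and a change in the number of bacteria cannot be told apart from a change in the rest of the community.

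The rule was applied to libraries of unequal depth, of which a pair stood apart. Libraries held 448 to 24251 reads, with a median of 3097 in colon (n = 18) and 10178 in faeces (n = 17), and 3 colon libraries had under 1000. Both libraries numbered 1 were unlike their groups. Faeces control 1 lay at a mean Bray-Curtis distance (0 for equal and 1 for wholly different composition) of 0.961 to the other control faeces, where each of the rest lay at 0.522 to 0.578. It was also far from the colon libraries, at a mean distance of 0.925. Colon control 1 lay at a mean distance of 0.511 to the faecal libraries and 0.681 to the other colon libraries. The rest of the colon libraries lay at 0.602 to 0.832 to the faecal libraries. Values without these libraries stand beside the results that moved most.

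The margin by which each feature met the rule was wide for 0df6c802 and narrow for f80166d8. The lowest count of 0df6c802 was 14 reads and that of 95fdd816 was 6 reads, both in colon shocked 12, the shallowest library with 448 reads. The lowest count of f80166d8 was 4 reads of 638 in colon control 8, a share of 0.627% (95% exact Clopper-Pearson interval 0.171% to 1.60%). The lowest count above 0 anywhere in the table was 2. Just outside the rule, 2 features were read in 34 libraries, at mean shares of 4.57% and 4.09%, and both were missing only from faeces control 1. A further feature, with the highest mean share of all at 6.55%, was read in 33 libraries and was missing from colon shocked 13 and faeces control 1. These 3 were thus as abundant as the features inside the rule, and for the first 2 faeces control 1 alone set the boundary. In that library the included features had 33 reads (0df6c802), 134 reads (f80166d8) and 11 reads (95fdd816) of 6586.

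Abundance placed the 3 features among the leading members of most communities, though not at a fixed rank. The rule favours abundant features, since scarce ones are easily missed in a library of 448 reads. High shares and ranks are therefore partly built into the selection. Over all 35 libraries, 0df6c802 averaged 4.93% ± 3.70 of reads (SD, n = 35), f80166d8 4.28% ± 3.76 (SD, n = 35) and 95fdd816 3.35% ± 3.77 (SD, n = 35). By mean share they ranked 2, 4 and 7. At least 1 of them was among the 5 most read features in 32 libraries, and 1 of them was the most read feature in 11, of which 8 were colon and 3 faecal. The rank of 0df6c802 within a library ran from 1 to 36 with a median of 5. That of f80166d8 ran from 1 to 103 with a median of 7, and that of 95fdd816 from 1 to 73 with a median of 12. Being read in every library did not mean a steady share, and for 95fdd816 the SD exceeded the mean.

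Together the 3 features took a similar share of each group. Controls of colon had a summed share of 11.4% ± 4.88 (SD, n = 10; lowest 4.07%, median 10.9%, highest 22.2%) and shocked colon libraries 12.9% ± 3.94 (SD, n = 8; lowest 8.45%, median 13.1%, highest 18.5%). In control faeces it was 12.7% ± 6.92 (SD, n = 9; lowest 2.70%, median 12.4%, highest 26.7%) and in shocked faeces 13.5% ± 7.56 (SD, n = 8; lowest 5.26%, median 9.91%, highest 26.03%). The 4 ranges overlapped over most of their length. Faeces control 1 held the lowest sum of all libraries and colon control 1 the highest sum of the colon libraries. The make-up of the sum varied from library to library, as the stacked plot of shares shows.

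**Figure D1:**
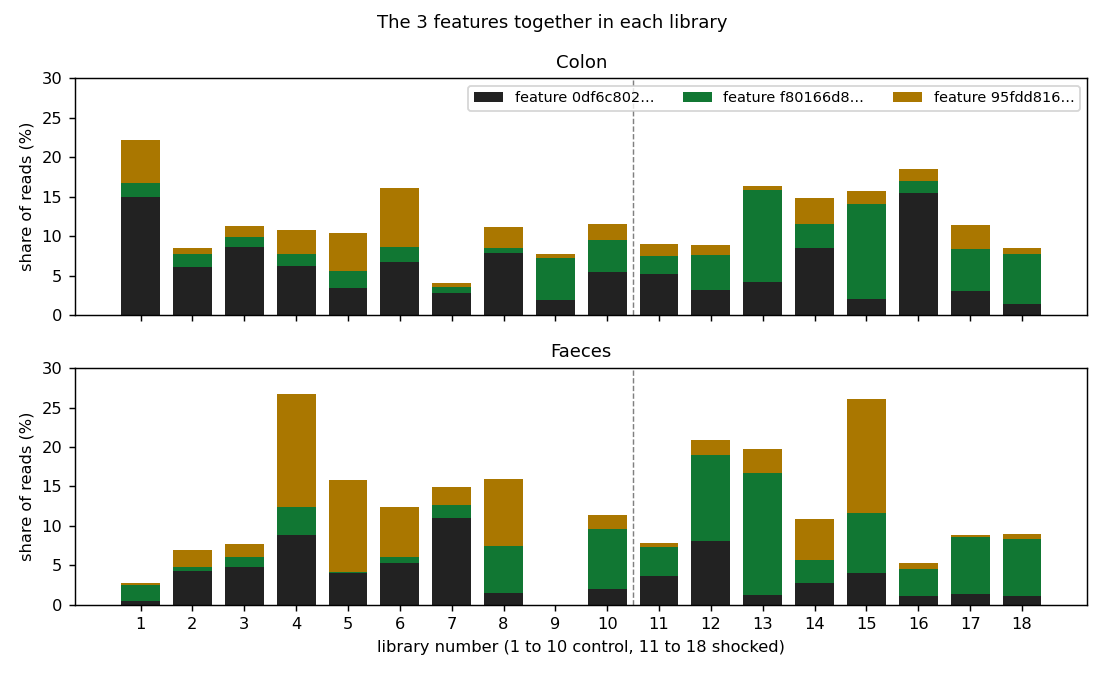
Share of reads (percent) of the 3 features stacked for each of the 35 libraries, with colon and faeces in separate panels and libraries in order of their number. The summed height spans 2.70% to 26.7%. Feature f80166d8 alone is the tallest segment in 5 of 8 libraries of both shocked groups. It is so in 1 of 10 control colon and 2 of 9 control faecal libraries, and it ties with 0df6c802 in faeces shocked 11.

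Feature f80166d8 had the higher mean in the shocked group of both compartments. In control colon its share ran from 0.627% through a median of 1.71% to 5.32% (mean 2.12% ± 1.47, SD, n = 10). In shocked colon it ran from 1.46% through a median of 4.91% to 12.04% (mean 5.83% ± 4.06, SD, n = 8). The ranges overlapped: 7 of 8 shocked libraries lay above the control median and 4 of 8 above the highest control, and 3 of 10 controls lay below the lowest shocked library. The ratio of the means was 2.75 and that of the geometric means 2.63.

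Faeces showed the same order for f80166d8. Its share ran from 0.135% through a median of 1.63% to 7.61% in control faeces (mean 2.60% ± 2.61, SD, n = 9). It ran from 2.90% through a median of 7.25% to 15.5% in shocked faeces (mean 7.31% ± 4.25, SD, n = 8). All 8 shocked libraries lay above the control median and 2 of 8 above the highest control, while 6 of 9 controls lay below the lowest shocked library. The ratio of the means was 2.81 and that of the geometric means 4.30. In shocked faeces f80166d8 had the highest mean share of all features and was among the 10 most read features in 8 of 8 libraries, against 4 of 9 in control faeces.

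Feature 0df6c802 had the lower mean in the shocked groups, within widely overlapping ranges. It ran from 1.88% through a median of 6.17% to 14.9% in control colon (mean 6.40% ± 3.71, SD, n = 10) and from 1.34% through 3.68% to 15.5% in shocked colon (mean 5.38% ± 4.67, SD, n = 8). The highest control value was that of colon control 1, and without it the control mean was 5.45% ± 2.31 (SD, n = 9). In control faeces the share ran from 0.501% through 4.31% to 10.998% (mean 4.70% ± 3.41, SD, n = 9), and in shocked faeces from 1.07% through 2.07% to 8.08% (mean 2.92% ± 2.41, SD, n = 8). Without faeces control 1 the control faecal mean was 5.23% ± 3.23 (SD, n = 8). Of the shocked libraries, 2 of 8 in colon and 1 of 8 in faeces lay above the control median.

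Feature 95fdd816 also had the lower mean in the shocked groups, and in shocked faeces its SD exceeded its mean. Its share ran from 0.454% through a median of 2.33% to 7.47% in control colon (mean 2.84% ± 2.34, SD, n = 10) and from 0.466% through 1.52% to 3.28% in shocked colon (mean 1.70% ± 1.0003, SD, n = 8). It ran from 0.167% through 2.29% to 14.3% in control faeces (mean 5.43% ± 5.05, SD, n = 9) and from 0.266% through 1.31% to 14.4% in shocked faeces (mean 3.32% ± 4.76, SD, n = 8). The control median was exceeded by 2 of 8 shocked libraries in colon and 3 of 8 in faeces. Without faeces control 1, which held the lowest value, the control faecal mean was 6.08% ± 4.98 (SD, n = 8).

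**Figure D2:**
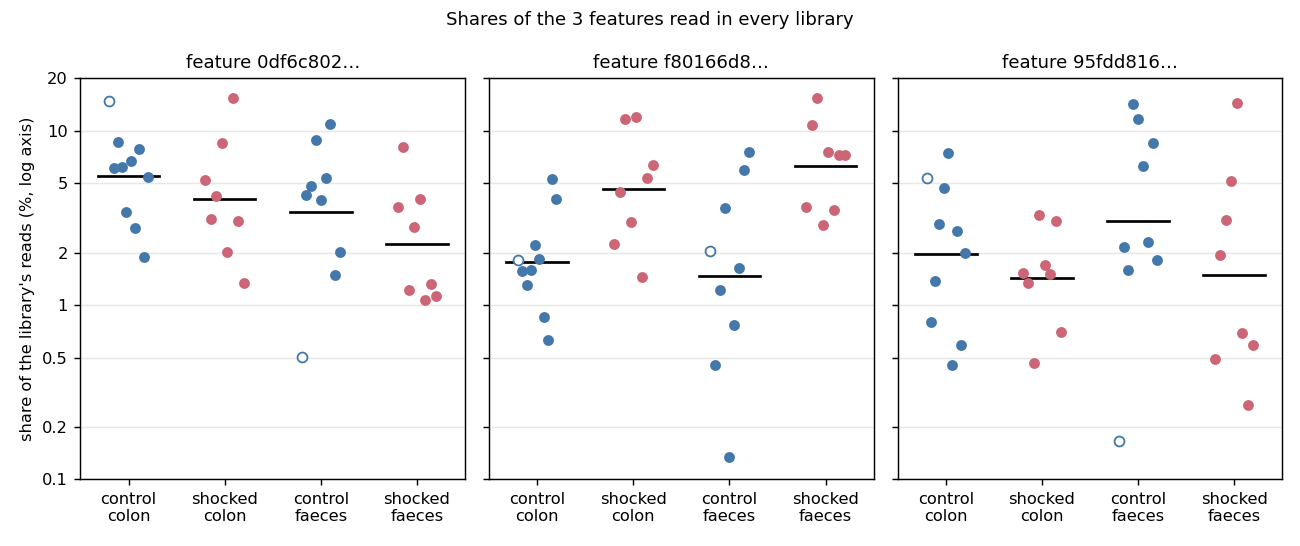
Share of reads (percent, log axis) of each of the 3 features in every library by group, with bars at the geometric mean and open circles for the libraries numbered 1. All 8 shocked faecal points of f80166d8 sit above the control faecal median of 1.63%, while the groups of 0df6c802 and 95fdd816 overlap over most of their range.

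None of the 3 features passed the test for footshock in colon. edgeR's quasi-likelihood test called 8 of 95 features there, 8.42%, at a Benjamini-Hochberg adjusted p under 0.05, and 9 at an unadjusted p under 0.05, but 0 of the 3. On simulated counts of these depths edgeR's calls held more false ones than the threshold is meant to allow, so its call counts here and below may be too high. For f80166d8 the log2 fold change, shocked over control, was 0.97 ± 0.64 (SE; 95% interval -0.32 to 2.25; edgeR adjusted p = 0.676). It was -0.48 ± 0.57 for 0df6c802 (edgeR adjusted p = 0.826) and -1.05 ± 0.75 for 95fdd816 (edgeR adjusted p = 0.676). The median over all 95 features was -0.40 with the trimmed-mean scaling used and 0.02 with library totals alone, so 0df6c802 lay near the median feature under the first. Under library totals alone the values were 1.46 for f80166d8, -0.25 for 0df6c802 and -0.74 for 95fdd816. DESeq2 called 3 features and limma 2 in this comparison, again 0 of the 3.

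Faeces gave the same outcome at the threshold. edgeR called 2 of 135 features, 1.48%, and 6 at an unadjusted p under 0.05, with 0 of the 3 among the 2. Feature f80166d8 had a log2 fold change of 1.60 ± 0.71 (SE; 95% interval 0.16 to 3.04), the fifth smallest p of the 135 (edgeR p = 0.0310, adjusted p = 0.837). The value was -0.75 ± 0.71 for 0df6c802 and -0.67 ± 0.85 for 95fdd816 (edgeR adjusted p = 0.983 for both), beside a median of 0.31 over all features. DESeq2 and limma each called 2 features, 0 of them among the 3. Leaving out faeces shocked 13, which held 15.5% of f80166d8, lowered its log2 fold change to 0.98, and leaving out faeces control 10 raised it to 1.99. Its unadjusted edgeR p was under 0.05 in only 6 of the 17 fits that left out 1 library, and rose to as much as 0.193.

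A permutation test of mean log2 share, which takes each library with equal weight, gave f80166d8 smaller p-values than edgeR did. In colon the difference was 1.40 on the log2 scale (two-sided exact permutation test, p = 0.0106, rank 3 of 95; adjusted p = 0.282), and in faeces it was 2.10 (exact permutation p = 0.00810, rank 5 of 135; adjusted p = 0.203). This test called 1 of 95 features in colon, 1.05%, and 0 of 135 in faeces, where 10 had an unadjusted p under 0.05. Neither difference of f80166d8 therefore passed the threshold after adjustment over all features. Without the libraries numbered 1 the differences were 1.40 (exact permutation p = 0.0149, adjusted p = 0.178) and 2.16 (exact permutation p = 0.0106, adjusted p = 0.384). Without the 3 colon libraries under 1000 reads the colon difference was 1.20 (exact permutation p = 0.0452, adjusted p = 0.632).

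The differences of the other members were smaller by the same measure. For 0df6c802 the difference was -0.43 in colon (exact permutation p = 0.368) and -0.61 in faeces (exact permutation p = 0.330). For 95fdd816 it was -0.46 in colon (exact permutation p = 0.431) and -1.03 in faeces (exact permutation p = 0.295). Leaving out faeces control 1, where both features were at their lowest in the group, moved the faecal differences to -0.95 (exact permutation p = 0.0848, adjusted p = 0.703) and -1.55 (exact permutation p = 0.0842, adjusted p = 0.703).

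An interaction term tested whether the compartments differ in the footshock difference of a feature. edgeR called 0 of 127 features, 0%, and 13 at an unadjusted p under 0.05, while DESeq2 called 2 and limma 0. The difference of the log2 fold changes, faeces minus colon, was 0.86 ± 0.91 (SE) for f80166d8 with a 95% interval of -0.95 to 2.67. It was -0.03 ± 0.89 for 0df6c802 and 0.40 ± 1.05 for 95fdd816 (edgeR adjusted p = 0.9998 for all 3). These intervals are wide, and responses that differ by several-fold between the compartments lie within them. The sign of the value for 95fdd816 turned under 4 other settings and that of 0df6c802 under 1, besides single libraries left out, as listed with the dependence on the processing.

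**Figure D3:**
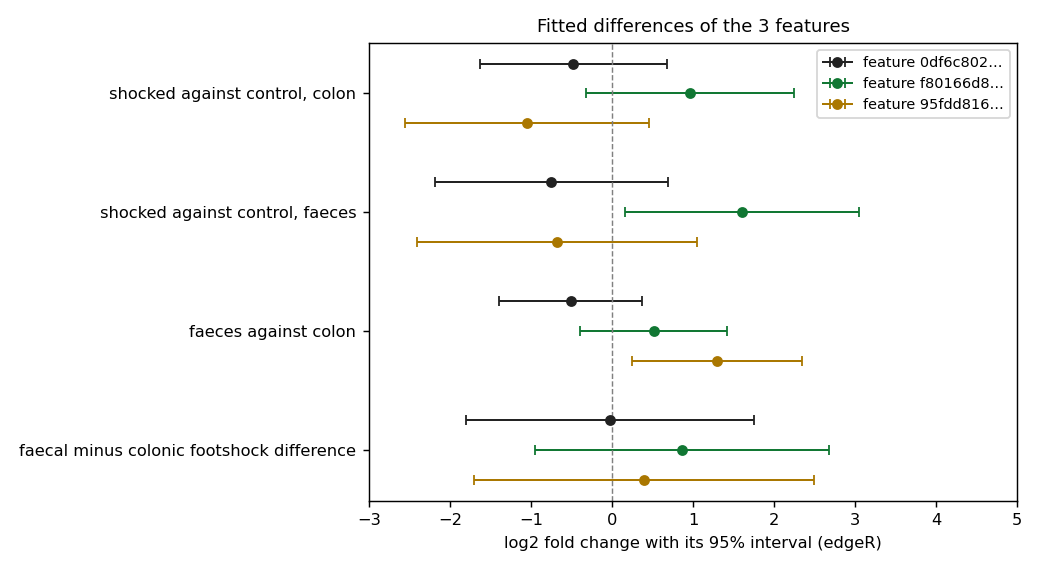
edgeR log2 fold changes of the 3 features with 95% intervals for footshock in colon, footshock in faeces, faeces against colon, and the interaction. The intervals cross 0 except those of f80166d8 for footshock in faeces (0.16 to 3.04) and 95fdd816 for faeces against colon (0.25 to 2.35), and no adjusted p was under 0.05.

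Ratios between the features within a library do not depend on the other features, and the order of the features differed between control and shocked libraries. The log2 ratio of f80166d8 to 0df6c802 was -1.64 ± 1.48 in control colon (SD, n = 10), where 1 of 10 libraries was above 0, and 0.19 ± 2.07 in shocked colon (SD, n = 8), with 5 of 8 above 0. In control faeces it was -1.23 ± 2.59 (SD, n = 9), with 3 of 9 above 0. In shocked faeces it was 1.48 ± 1.36 (SD, n = 8), with 7 of 8 above 0 and the last, faeces shocked 11, at exactly 0. By geometric means 0df6c802 was thus 3.12 times as abundant as f80166d8 in control colon and 2.34 times in control faeces, while f80166d8 was 2.80 times as abundant as 0df6c802 in shocked faeces. Without the libraries numbered 1 the mean log2 ratio was -1.49 in control colon (n = 9) and -1.63 in control faeces (n = 8), where 0df6c802 was then 3.10 times as abundant. Among colon libraries of 1000 reads or more the ratio was -1.42 ± 1.39 in controls (SD, n = 9), with 1 of 9 above 0. In shocked ones it was 0.03 ± 2.42 (SD, n = 6), with 3 of 6 above 0. The ranges of control and shocked libraries overlapped in both compartments, and since these ratios combine features picked for their values, no p is given.

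The ratio of f80166d8 to 95fdd816 followed a similar order. It was -0.16 ± 1.69 on the log2 scale in control colon (SD, n = 10) against 1.70 ± 1.72 for shocked colon (SD, n = 8). Control faeces had -1.05 ± 2.91 (SD, n = 9) against 2.09 ± 1.999 for shocked faeces (SD, n = 8), with 6 of 8 libraries above 0 in both shocked groups. Without the libraries numbered 1 the control values were -0.0054 in colon and -1.63 in faeces. The ratio of 95fdd816 to 0df6c802 varied little with treatment by comparison, and the compartments differed more. It was -1.48 ± 1.13 for the 10 controls and -1.51 ± 1.23 for the 8 shocked libraries of colon, and -0.18 ± 1.59 for the 9 controls and -0.60 ± 1.78 for the 8 shocked libraries of faeces (all SD).

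The same counts can also be read without averages, by which of the 3 was the most abundant in a library. This restates the ratios above and is not separate evidence. In control colon 0df6c802 led in 7 of 10 libraries, 95fdd816 in 2 and f80166d8 in 1. In shocked colon f80166d8 led in 5 of 8 and 0df6c802 in 3. In control faeces the lead was split, 4 of 9 for 95fdd816, 3 for 0df6c802 and 2 for f80166d8. Shocked faeces had f80166d8 in the lead in 5 of 8 and 95fdd816 in 2. In the last, faeces shocked 11, f80166d8 and 0df6c802 tied at 260 reads each.

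**Figure D4:**
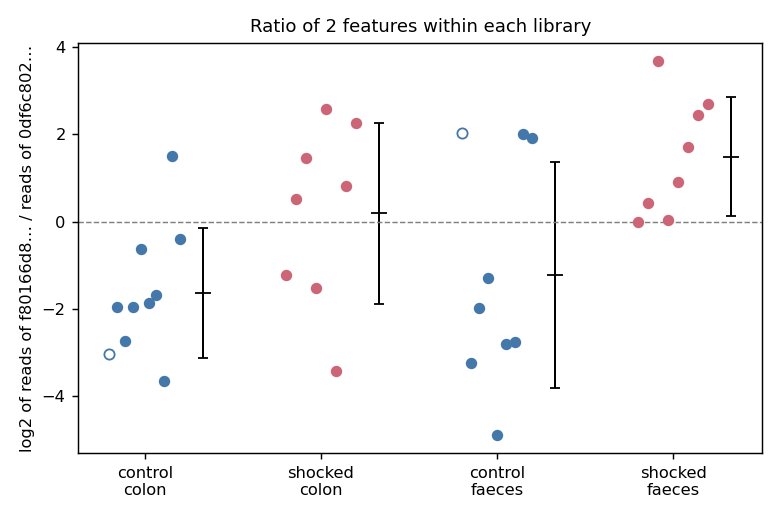
Log2 ratio of the share of f80166d8 to that of 0df6c802 in each library by group, with the mean ± SD and open circles for the libraries numbered 1. In control colon 1 of 10 libraries lies above 0, and in shocked faeces 7 of 8 lie above 0 and 1 at 0.

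Between colon and faeces, none of the 3 features passed the test of edgeR. With treatment as a covariate, edgeR called 18 of 127 features, 14.2%, and 36 at an unadjusted p under 0.05, with 0 of the 3 among the 18. The log2 fold change, faeces over colon, was 1.30 ± 0.53 for 95fdd816 (SE; 95% interval 0.25 to 2.35; edgeR adjusted p = 0.0793). It was 0.51 ± 0.45 for f80166d8 and -0.51 ± 0.44 for 0df6c802 (edgeR adjusted p = 0.430 for both). The median over all features was 0.95 with the trimmed-mean scaling and 0.72 with library totals alone, so relative to the median feature 95fdd816 lay above and the other two below, although by limma on centred log-ratios f80166d8 also lay above it (0.54 against a median of 0.27).

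The value for 95fdd816 depended on the method and on the libraries numbered 1. DESeq2 gave 1.30 (DESeq2 adjusted p = 0.0489), and edgeR without both libraries numbered 1 gave 1.60 (edgeR adjusted p = 0.0110), each past the threshold. Without faeces shocked 15, which held 14.4% of 95fdd816, edgeR gave 0.80 (edgeR adjusted p = 0.339). The permutation test of mean log2 share, with labels permuted within treatment, gave 0.34 (100000 resamples, p = 0.534, adjusted p = 0.737). The same test gave -0.77 for 0df6c802 (permutation p = 0.0498, adjusted p = 0.151) and 0.09 for f80166d8 (permutation p = 0.823, adjusted p = 0.924), and it called 28 of 127 features, 22.0%. Without the libraries numbered 1 it gave -0.51 for 0df6c802 (permutation p = 0.150), 0.68 for 95fdd816 (permutation p = 0.188) and 0.06 for f80166d8 (permutation p = 0.884), and it called 43 of 117. Within controls alone and within shocked libraries alone, the 3 differences had exact permutation p-values of 0.145 or more.

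Among the 17 library numbers with both a colon and a faecal library, f80166d8 was the member with the most numbers at similar shares. Its faecal share was within 2-fold of the colon share in 10 of 17 numbers, against 7 of 17 for 0df6c802 and 6 of 17 for 95fdd816. For f80166d8 these were 6 of 8 shocked numbers, where faeces over colon ran from 0.631 to 2.43, and 4 of 9 control numbers, where it ran from 0.0612 to 9.51. The extremes were control 5, at 2.21% in colon and 0.135% in faeces, and control 8, at 0.627% in colon and 5.96% in faeces. The colon share of control 8 rests on 4 reads. How often a colon and a faecal library of different numbers lie within 2-fold was not counted, so these counts have no baseline. Faeces held more f80166d8 than colon in 11 of 17 numbers, more 95fdd816 in 10 of 17 and more 0df6c802 in 5 of 17, where the geometric mean of colon over faeces was 1.81.

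Across those numbers, the colon and faecal shares of f80166d8 correlated positively before adjustment (Pearson r = 0.52, permutation p = 0.0344, adjusted p = 0.198; Spearman rho = 0.65, permutation p = 0.00605, adjusted p = 0.296 over the 49 features read in at least 50% of libraries). By rho it ranked 1 of the 49 and by r it ranked 9. None of the 49 passed after adjustment by either measure, 0%, while 3 had an unadjusted permutation p under 0.05 by rho and 9 by r. Without the 2 numbers farthest from the median in colon, 13 and 15, r fell to 0.37 and rho to 0.53. Under 3 other settings rho ran from 0.42, on centred log-ratios, to 0.67 (permutation adjusted p of 0.204 or more). Among the 8 shocked numbers the relation was positive (r = 0.80, exact permutation p = 0.0207; rho = 0.74, exact permutation p = 0.0458), and among the 9 controls it was near 0 (r = -0.11, exact permutation p = 0.785; rho = -0.10, exact permutation p = 0.810). Whether the treatments differ in this relation was not tested, and the pooled value also contains the difference between the treatments.

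Neither of the other members passed the same test. For 0df6c802 r was -0.28 (permutation p = 0.282) and rho -0.21 (permutation p = 0.424), and without number 1, which had 14.9% in colon and 0.501% in faeces, rho was -0.05 (permutation p = 0.857). Among the 9 controls r was -0.71 (exact permutation p = 0.0341) and rho -0.43 (exact permutation p = 0.2499), and without number 1 these were -0.42 (exact permutation p = 0.292) and -0.19 (exact permutation p = 0.665). Among the 8 shocked numbers r was -0.14 (exact permutation p = 0.738). For 95fdd816 r was 0.13 (permutation p = 0.616) and rho 0.15 (permutation p = 0.551), and rho was 0.35 without number 1 (permutation p = 0.184) and 0.53 on centred log-ratios (permutation p = 0.0298, adjusted p = 0.487). Among the 9 controls its r was 0.11 (exact permutation p = 0.782). Without number 1 the controls had r = 0.69 (exact permutation p = 0.0683) and rho = 0.62 (exact permutation p = 0.115). Its r among the 8 shocked numbers was -0.03 (exact permutation p = 0.952). Apart from the values without number 1 or within a treatment, these relations are across 17 numbers.

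**Figure D5:**
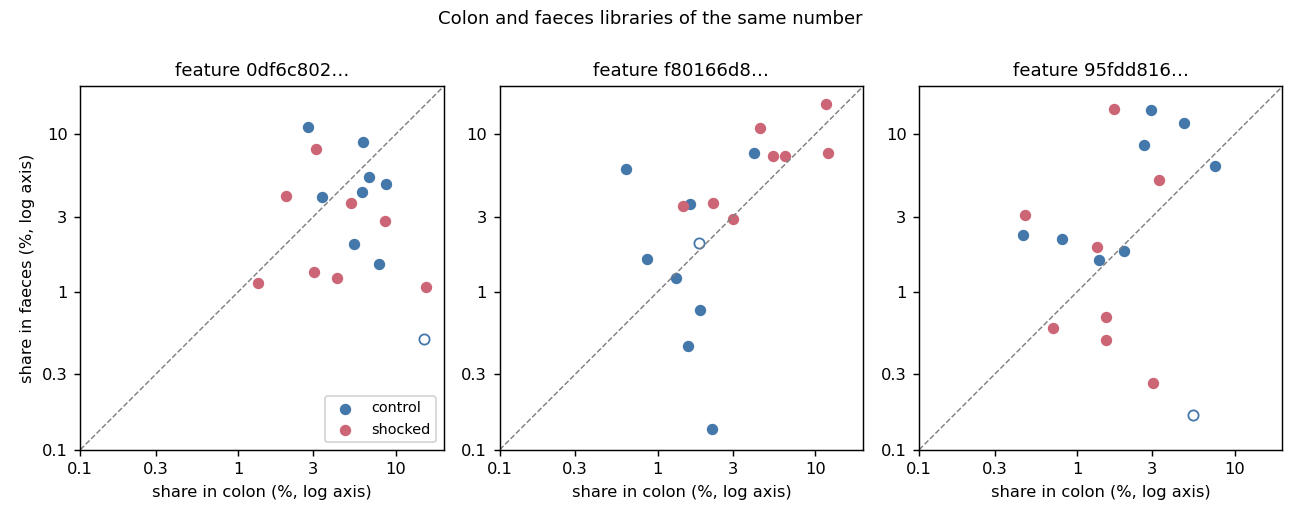
Faecal share against colon share (percent, log axes) for the 17 library numbers with both libraries, a panel for each of the 3 features, control and shocked numbers marked apart, with the line of equal shares. The 8 shocked numbers of f80166d8 stay between 0.631 and 2.43 times the colon share, while control numbers reach 0.0612 and 9.51 times.

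The members also varied against each other within a compartment. Shares sum to 100%, so a negative relation between abundant features is partly built in. In colon, 0df6c802 and f80166d8 correlated negatively before adjustment (n = 18; r = -0.58, permutation p = 0.0114, adjusted p = 0.204; rho = -0.63, permutation p = 0.00589, adjusted p = 0.415). Without the 2 libraries farthest from the median r was -0.53, and on centred log-ratios rho was -0.49. The Spearman correlation was -0.42 among the 10 controls (permutation p = 0.234) and -0.79 among the 8 shocked libraries (exact permutation p = 0.0279). In faeces the values were closer to 0 (n = 17; r = -0.30, permutation p = 0.241; rho = -0.29, permutation p = 0.251). Without the 2 farthest libraries r was -0.41 and rho -0.45. In faeces rho was -0.27 among the 9 controls (exact permutation p = 0.493) and 0.26 among the 8 shocked libraries (exact permutation p = 0.536).

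Features 0df6c802 and 95fdd816 had positive correlations in both compartments, none past the threshold after adjustment. In colon r was 0.48 (permutation p = 0.0474, adjusted p = 0.393) and rho 0.47 (permutation p = 0.0519, adjusted p = 0.546). In faeces r was 0.56 (permutation p = 0.0188, adjusted p = 0.288) and rho 0.51 (permutation p = 0.0390, adjusted p = 0.546), but without the 2 libraries farthest from the median r was 0.35. Without the libraries numbered 1, r was 0.39 in colon and 0.42 in faeces. Within treatments, rho in colon was 0.56 among the 10 controls (permutation p = 0.0960) and 0.19 among the 8 shocked libraries (exact permutation p = 0.665). In faeces it was 0.37 among the 9 controls (exact permutation p = 0.336) and 0.31 among the 8 shocked libraries (exact permutation p = 0.462). The pooled values also contain the difference between the treatments. Features f80166d8 and 95fdd816 had a rho of -0.11 in colon (permutation p = 0.667) and -0.10 in faeces (permutation p = 0.714). Of the 282 pairs of a member and another feature, over both compartments, 0 passed after adjustment by either measure, 0%, and 23 had an unadjusted permutation p under 0.05 by rho and 35 by r.

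Of the other 48 features read in at least 50% of libraries, 1 was nearest to the same member in both compartments. Feature 33ea9f7df7a02a6f06fb9700ed440401, at a mean of 0.604% of colon reads and 0.754% of faecal reads, had the highest rho with 95fdd816 in colon (rho = 0.66, n = 18, permutation p = 0.00420, adjusted p = 0.411) and in faeces (rho = 0.59, n = 17, permutation p = 0.0135, adjusted p = 0.535). It was read in only 11 of the 18 colon and 12 of the 17 faecal libraries. In the others 0.5 read stood in place of 0, so those values reflect depth alone. The nearest features of 0df6c802 (rho = 0.57 in both compartments) and of f80166d8 (rho = 0.66 in colon and 0.50 in faeces) were different ones in colon and faeces.

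Depth had the largest correlations with 2 of the 3 members in colon, where shocked libraries held fewer reads than controls on average (mean 2717 ± 2915 reads, SD, n = 8, against 6212 ± 5474, SD, n = 10). The Spearman correlation of the log2 share with log2 total reads was 0.50 for 0df6c802 (permutation p = 0.0373, adjusted p = 0.523; r = 0.43, permutation p = 0.0759) and -0.44 for f80166d8 (permutation p = 0.0702, adjusted p = 0.741; r = -0.32, permutation p = 0.197). Within the shocked colon libraries the values were 0.40 and -0.19, and within the control colon libraries 0.42 and -0.26. Under 3 other settings rho in colon ran from 0.41 to 0.64 for 0df6c802 and from -0.65 to -0.42 for f80166d8 (permutation adjusted p of 0.388 or more). The settings were centred log-ratios, libraries numbered 1 left out, and libraries under 1000 reads left out, where both relations were strongest. With every library thinned to 1000 reads and shallower ones left out, the footshock difference in colon was 1.27 for f80166d8, -0.25 for 0df6c802 and -1.004 for 95fdd816 (edgeR adjusted p of 0.384 or more). For 95fdd816 in colon and for all 3 members in faeces rho was between 0.05 and 0.18. Of 98 such relations, 0 passed after adjustment, 0%, and 7 had an unadjusted permutation p under 0.05 by rho and 6 by r. The part of depth in the footshock differences was not tested.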

How the data were processed

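Colon and faecal bacterial DNA was profiled by 16S V3-V4 amplicon sequencing in 35 libraries, grouped by the tissue and treatment labels. The values used are the authors' deposited counts of reads for each feature, not normalized; the file header names a biom file as their origin. cutadapt was used per the submitters' processing notes. Its version, the software behind the features and the read filters are not given in the sources used. Of per-sample columns, 0 were left unused. Within groups, all 137 pairs of libraries differed by more than sampling noise (chi-square over its degrees of freedom at least 8.33).

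The 3 members, the features named and the tests were chosen with earlier results of these data known. The other feature named is the one with the highest rho with the same member in both compartments. Counts were tested with edgeR 4.0.16 in R 4.3.3 (quasi-likelihood F test, TMM scaling) over all features present in 25% or more of a fit's libraries, with Benjamini-Hochberg adjustment over all of them and a threshold of 0.05. Standard errors are the absolute log2 fold change over the square root of F. Log2 shares used 0.5 read in place of 0. Permutation tests were two-sided, exact within a compartment for groups and for relations over up to 9 libraries, with 100000 resamples otherwise (scipy 1.17.1). Clopper-Pearson intervals cover counting error only, since PCR reads without molecular identifiers are not independent molecules. edgeR was checked on simulated counts, in which more of the calls were false than the threshold is meant to allow.

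Alternatives were DESeq2 1.42.0, limma 3.58.1 on centred log-ratios, TMMwsp, library totals alone, other prevalence filters, 1 fit over all 4 groups, thinning to 1000 reads, leaving out each library, both libraries numbered 1 or libraries under 1000 reads, and the library number as a replicate block. The numbers did not count as pairing, since the labels do not say that a shared number is a shared rat. Deviations of same-numbered libraries correlated above 0.1 in 9 of 17 numbers (lowest -0.39, median 0.17, highest 0.65). Whether these numbers are shared rats was not tested.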

Additional observations from a re-analysis of the deposited data

Results flagged for a closer look

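Each of 16 sets of values, a feature or the sum of the 3 within a group, was searched for 1 library far from the others, and 3 sets had one. The cut-off used would mark about 1 in 20 groups of normally distributed values by chance. Shares here were skewed, as for 95fdd816 in shocked faeces (mean 3.32%, median 1.31%), so that rate does not apply. Feature 0df6c802 took 14.9% of reads in colon control 1, where the next highest control colon library held 8.64%; in composition colon control 1 lay at a mean Bray-Curtis distance of 0.511 to faeces and 0.681 to the other colon libraries. Feature 0df6c802 took 8.08% of reads in faeces shocked 12, where the next highest shocked faecal library held 4.06%. Feature 95fdd816 took 14.4% of reads in faeces shocked 15, where the next highest held 5.12%. Without faeces shocked 15, the footshock difference of 95fdd816 in faeces was -1.91 on the log2 scale in place of -0.67 (edgeR adjusted p = 0.873), and without faeces shocked 12 that of 0df6c802 was -1.31 in place of -0.75.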

How the results depend on the processing

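For footshock, no member was called under any alternative, and the sign of each member's difference was the same in all of them, in colon (29 settings) and in faeces (28). The number of called features over the whole table moved much more. In colon it was 3 by DESeq2, 2 by limma, 304 with no prevalence filter, 0 with a 50% filter, 3 without libraries under 1000 reads, 3 after thinning and 0 in 1 fit over all 4 groups. In faeces it was 475 with no filter, 0 with a 50% filter, 1 without both libraries numbered 1 and 0 after thinning. Between compartments it was 29 by limma, 414 with no filter, 11 with a 50% filter, 33 without both libraries numbered 1 and 28 with the replicate block. For the interaction it was 2 by DESeq2 and 10 with no filter. The causes were not tested.

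Leaving out 1 library at a time gave 2 to 15 calls in colon (2 without shocked 13, 15 without shocked 11), 1 to 3 in faeces, 11 to 23 between compartments and 0 throughout for the interaction. Log2 differences then ran, in colon, from -1.07 to -0.33 for 0df6c802, 0.68 to 1.18 for f80166d8 and -1.43 to -0.78 for 95fdd816. In faeces they ran from -1.31 to -0.43, 0.98 to 1.99 and -1.91 to -0.31, between compartments from -1.04 to -0.39, -0.018 to 0.76 and 0.80 to 1.54, and for the interaction from -0.61 to 0.32, 0.37 to 1.08 and -0.66 to 0.95, in the same order.

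Between compartments, f80166d8 turned to -0.069 after thinning and to -0.018 without faeces control 10, and 95fdd816 passed the threshold by DESeq2 (1.30) and without both libraries numbered 1 (1.60). With the library number as a replicate block, over the 17 numbers with both libraries, the values were -0.57 for 0df6c802, 0.41 for f80166d8 and 0.60 for 95fdd816, and the interaction turned to 0.54 for 0df6c802 and -0.11 for 95fdd816. The interaction of 95fdd816 also turned to -0.79 by limma, -0.14 with TMMwsp and -0.36 without both libraries numbered 1. Own-number libraries correlated best in 7 of 17 numbers.

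Of the relations, rho near 0 changed sign as follows. Between same-numbered libraries, 0df6c802 went to 0 on centred log-ratios. In faeces, f80166d8 and 95fdd816 went to 0.0049 on centred log-ratios and 0.057 without the 2 farthest libraries. With depth in faeces, 0df6c802 went to -0.16 on centred log-ratios and -0.029 without libraries numbered 1, and f80166d8 to -0.064 without the 2 farthest and -0.034 on centred log-ratios. With depth in colon, 95fdd816 went to -0.15, -0.022 and -0.074 without the 2 farthest, on centred log-ratios and without libraries numbered 1. Depth limits the colon shares most: at 448 reads, the floor of 3 reads is 0.670% of a library.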
